A study of Mus musculus with 20 samples.

Results

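The ATP-binding cassette (ABC) superfamily was followed through 10 mouse blood cell types. Its members were taken as every gene whose probe sets carry a single symbol in the array annotation and whose symbol is Abc, a subfamily letter from a to g and a number. This gave 45 genes with 92 probe sets, of 18193 genes on the array, and 24 of the 45 had at least 2 of the 20 arrays above 5 on the log2 scale. The other 21 were not tested. A symbol of this form is a matter of nomenclature, so the transporters Tap1, Tap2 and Cftr, which belong to the same superfamily, are not members here.

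The study built an expression catalogue of stem cells and mature blood cells on Affymetrix mouse arrays, 2 arrays for each cell type. All groups came from wild-type female C57Bl/6 mice aged 12 to 14 weeks, given as CD45.1 in the design text, and each array was labelled as a pool of 4 samples. Each sample held 25000 to 50000 cells sorted by flow cytometry, and the RNA went through 2 rounds of in vitro transcription. The groups were long-term hematopoietic stem cells (LT-HSC, labelled SPKSL), NK cells, naive T cells of the CD4 and the CD8 lineage, T cells of both lineages labelled as LPS-activated, B cells, monocytes, granulocytes and nucleated erythrocytes. No label gives the organ, the markers of each sort or the time of activation.

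ABC proteins bind and hydrolyse ATP with a pair of conserved nucleotide-binding domains, and most use it to move a substrate across a membrane. The A subfamily and part of the G subfamily carry lipids and sterols, members of the B, C and G subfamilies pump drugs, dyes and conjugates out of cells, several B subfamily members sit in mitochondria or lysosomes, the D subfamily serves peroxisomes and lysosomes, and the E and F subfamilies have no membrane part and work on ribosomes. In blood, Abcg2 is known as the pump by which side-population cells exclude a DNA dye, P-glycoprotein is encoded in the mouse by the genes Abcb1a and Abcb1b, and mitochondrial Abcb10 is known for its role in the heme synthesis of red cell precursors.

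The promoters of 6 members are shown because these genes carry the main patterns below: Abcg2, Abcb10, Abcb6 and Abcb4 in erythrocytes, and the neighbouring genes Abcb1a and Abcb1b in T cells. Each is the RefSeq sequence of GRCm38.p6 from 250 bases before to 50 bases after a gene start, written 5′ to 3′ along the gene. Abcg2 has 3 listed starts, of which the most downstream is shown. Its window lies at chr6:58640296-58640595 (plus strand). The windows of Abcb10, Abcb6 and Abcb4 lie at chr8:123983073-123983372 (minus strand), chr1:75180343-75180642 (minus strand) and chr5:8893471-8893770 (plus strand). Those of Abcb1a and Abcb1b lie at chr5:8566841-8567140 (plus strand) and chr5:8797897-8798196 (plus strand). Capitals mark matches on either strand to the motifs searched, which were AGATAA for GATA factors, GGGCGG for the GC box, TGACGTCA for the cAMP response element, CACGTG for the E-box, CCACACCC for KLF factors and GAGGAAG for ETS factors.
Abcg2, downstream start: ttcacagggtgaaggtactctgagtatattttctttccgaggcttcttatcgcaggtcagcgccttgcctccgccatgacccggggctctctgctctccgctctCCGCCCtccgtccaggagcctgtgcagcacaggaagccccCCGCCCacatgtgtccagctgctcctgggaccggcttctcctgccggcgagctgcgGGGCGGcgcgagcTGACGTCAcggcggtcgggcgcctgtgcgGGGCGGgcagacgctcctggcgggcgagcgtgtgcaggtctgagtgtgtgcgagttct
Abcb10: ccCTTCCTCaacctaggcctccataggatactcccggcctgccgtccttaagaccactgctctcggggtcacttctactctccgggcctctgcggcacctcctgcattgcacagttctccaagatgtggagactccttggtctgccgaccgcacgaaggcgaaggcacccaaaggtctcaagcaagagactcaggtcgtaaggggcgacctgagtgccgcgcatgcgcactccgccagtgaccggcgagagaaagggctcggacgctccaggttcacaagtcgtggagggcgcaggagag
Abcb6: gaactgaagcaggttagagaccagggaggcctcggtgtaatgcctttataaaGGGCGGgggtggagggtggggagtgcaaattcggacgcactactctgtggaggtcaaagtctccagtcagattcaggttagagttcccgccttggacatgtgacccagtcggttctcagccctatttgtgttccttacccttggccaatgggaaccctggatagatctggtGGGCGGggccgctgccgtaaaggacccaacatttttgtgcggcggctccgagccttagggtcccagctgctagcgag
Abcb4: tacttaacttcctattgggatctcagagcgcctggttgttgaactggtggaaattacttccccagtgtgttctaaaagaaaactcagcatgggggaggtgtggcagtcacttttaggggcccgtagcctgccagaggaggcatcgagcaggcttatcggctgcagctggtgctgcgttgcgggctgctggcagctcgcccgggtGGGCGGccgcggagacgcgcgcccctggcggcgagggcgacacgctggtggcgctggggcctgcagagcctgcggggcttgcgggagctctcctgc
Abcb1a: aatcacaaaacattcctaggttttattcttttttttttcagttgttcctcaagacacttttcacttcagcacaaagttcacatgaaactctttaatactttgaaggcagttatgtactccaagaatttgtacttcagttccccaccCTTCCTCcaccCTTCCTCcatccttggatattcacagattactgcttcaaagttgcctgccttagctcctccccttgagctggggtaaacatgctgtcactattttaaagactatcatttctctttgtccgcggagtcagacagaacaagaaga
Abcb1b: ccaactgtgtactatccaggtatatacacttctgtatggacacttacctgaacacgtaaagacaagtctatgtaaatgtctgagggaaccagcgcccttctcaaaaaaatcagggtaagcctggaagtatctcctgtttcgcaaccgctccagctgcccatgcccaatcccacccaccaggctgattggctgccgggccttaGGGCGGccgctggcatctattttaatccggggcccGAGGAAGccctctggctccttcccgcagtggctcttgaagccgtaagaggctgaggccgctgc

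Promoters were listed for 20 of the 24 tested members, 24 windows in all. AGATAA was in 0 of those 24 windows and in 11.2% of all 32851 promoters of this length. GGGCGG was in 14 of the 24, against 35.7% of all promoters. TGACGTCA was in 2, the downstream Abcg2 start and Abce1, against 1.79%, and GAGGAAG was in 6, against 13.6%. CACGTG was in 3 and CCACACCC in 1, against 7.15% and 3.56%. These are matches of letters within 300 bases and say nothing of binding.

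Values are the authors' deposited log2 expression values, so a difference of 1 is a 2-fold difference. For each gene the brightest probe set stands for the gene. Differences were tested with limma on all 9810 genes that passed the same filter, with Benjamini-Hochberg adjustment over them, and a member is called where the adjusted p is under 0.05 and the difference is at least 1. The p-values measure the spread between these pooled samples. In bulk samples, fewer cells of a type and less RNA per cell cannot be told apart.

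The labels were checked first. Marker lists for stem, NK, T, CD8, B, granulocyte and erythroid cells each had their highest mean in the arrays of that label, but the monocyte list did not set monocytes (mean 6.77 and 7.93) apart from granulocytes (7.21 and 7.93), B cells (7.78 and 7.90), naive T cells (6.95 to 7.88) or NK array 1 (7.19), and Cd4 was below 5 on every array. Erythroid markers were raised in the granulocyte arrays: 4 and 3 of the 6 measured genes were above 5, with summed levels of 47.15 and 37.95, against 71.11 to 71.31 in erythrocytes and 15.04 to 15.61 in monocytes. Granulocyte markers were raised in the erythrocyte arrays (summed levels 72.29 and 81.56) and the monocyte arrays (71.88 and 76.48), against 99.53 to 100.79 in granulocytes. They also stood at 35.19 on naive CD4 array 2 (2 of 7 genes above 5, the highest at 10.75) and 23.28 on naive CD8 array 2 (1 of 7), against 18.14 to 18.73 on the other T cell arrays. In both B cell arrays 4 of the 5 measured B cell markers were above 5, and so were all 4 plasma cell markers. Plasma cell markers summed to 40.39 and 40.43 there and to at most 29.35 elsewhere. Although every sample is labelled female, the Y-linked gene Eif2s3y read 10.73 to 12.84 in all 4 activated T cell arrays and in the naive CD4 and naive CD8 arrays numbered 1, and at most 3.45 in the other arrays.

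**Figure D1:**
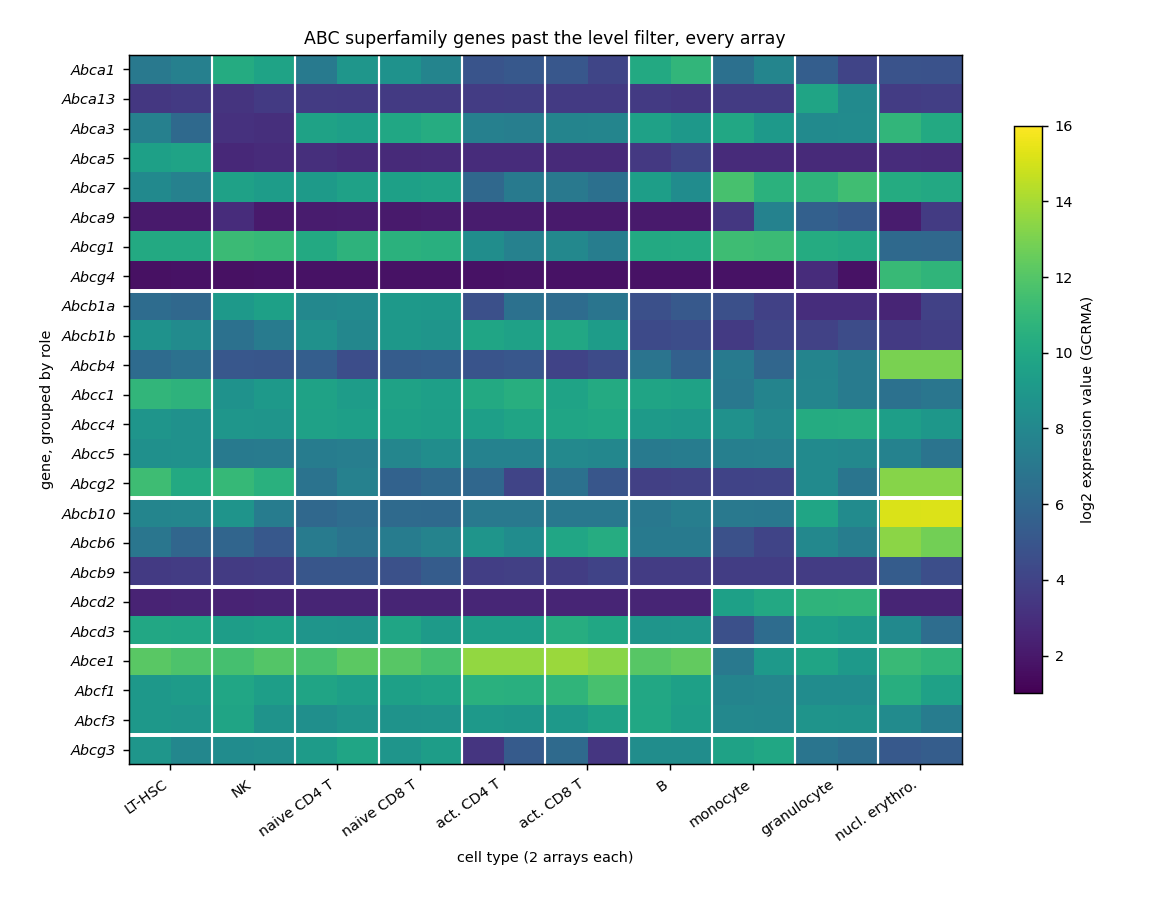
Log2 expression values of the 24 tested ABC genes (vertical axis, grouped by role) on each of the 20 arrays (horizontal axis, 2 arrays per cell type), with colour from low (dark) to high (bright). Abcb10, Abcb6, Abcb4, Abcg4 and Abcg2 are brightest in nucleated erythrocytes, Abca5 in LT-HSC, and Abcd2 in monocytes and granulocytes.

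Abcg2 was highest in nucleated erythrocytes and nearly as high in NK cells as in stem cells. It has 1 probe set, which read 13.30 and 13.30 on the erythrocyte arrays. It read 11.37 and 10.12 in LT-HSC and 11.03 and 10.55 in NK cells. Those pairs of arrays overlap, and both lie below the erythrocyte arrays and above every other array. Granulocytes read 8.15 and 6.81 and naive CD4 T cells 6.73 and 7.61. Naive CD8 T cells read 5.71 and 6.13, activated CD8 T cells 6.60 and 5.0, and activated CD4 T cells 6.02 and 4.09. Monocytes, at 4.03 and 4.10, and B cells, at 3.86 and 3.93, were the only types with both arrays below 5.

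By means the order of Abcg2 was nucleated erythrocytes (13.30), NK cells (10.79), LT-HSC (10.75), granulocytes (7.48), naive CD4 (7.17), naive CD8 (5.92), activated CD8 (5.80) and activated CD4 T cells (5.06), monocytes (4.07) and B cells (3.90). Of the 9 steps between neighbours in this order, 2 passed the test. Erythrocytes exceeded NK cells by 2.51 (SE 0.66, limma adjusted p = 0.00514; 53% of tested genes differed between these types), and LT-HSC exceeded granulocytes by 3.27 (SE 0.66, adjusted p = 0.000867; 51.5% differed). NK cells and LT-HSC differed by 0.045 (SE 0.66), so the spread of these arrays allows a difference of more than 1 either way. The labels do not spell out SPKSL, and a side-population gate would choose stem cells by the activity of this pump.

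The genes whose pattern over the 10 cell type means was most like that of Abcg2 were Sh3d19 (Pearson r = 0.952), Cmas, which activates sialic acid (0.930), Cntln (0.925), Frmd4a (0.924) and Cd163, the hemoglobin scavenger receptor (0.922). All of these 5 also had their highest mean in nucleated erythrocytes, and the points come from the same 20 arrays.

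Nucleated erythrocytes had more fingerprint members than any other type. A fingerprint gene is one that lies above each of the other 9 types, and 5 members were erythrocyte fingerprints, where 7.31% of tested genes were, and 7 members were fingerprints of any type, where 17.1% of tested genes were. Of the 7, Abca5, Abca13 and Abcg4 passed the level filter only through the 2 arrays of the type they mark, so these counts are a description. The 5 were Abcb10, Abcb6, Abcb4, Abcg4 and Abcg2. In the comparison with the mean of the other 9 types, 7 members were higher and 9 lower, against 18.5% and 36.7% of all tested genes. Abcg4 is one of the higher, so this count is a description too. The median difference was -0.47 over the 24 members and -0.54 over all tested genes, so the balance of the whole superfamily was near that of the array.

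Abcb10, of the inner mitochondrial membrane, read 15.13 and 15.19 in erythrocytes. Granulocytes read 9.84 and 8.21, NK cells 8.75 and 7.32, and every remaining array lay between 6.08 and 7.86. The margin over granulocytes was 6.14 (SE 0.47, limma adjusted p = 2.43e-07). In the order of the 10 means this was the only step between neighbours that passed the test, and 52.9% of tested genes differed between these types.

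Abcb6, a porphyrin transporter of the outer mitochondrial membrane and of lysosomes, read 13.37 and 12.79 in erythrocytes. Activated CD8 T cells came next at 9.86 and 10.31, then activated CD4 T cells at 8.81 and 8.32, and monocytes were lowest at 4.74 and 4.07. The groups do not overlap, and erythrocytes exceeded activated CD8 T cells by 3.0 (SE 0.41, limma adjusted p = 8.60e-05).

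The partners of these transporters were examined as a list. Of 17 tested genes of mitochondrial heme and iron-sulfur synthesis, 13 were higher in erythrocytes and 2 lower, against 18.5% and 36.7% of tested genes, with a median difference of 4.40. Alas2, the erythroid enzyme of the first step, was higher by 12.08, Alad by 7.42, Ppox by 6.10 and Fech, which inserts the iron, by 5.70. The 2 lower genes were Flvcr1, a heme exporter of the plasma membrane (-3.25), and Alas1, the housekeeping form of the first enzyme (-1.09).

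Abcb4 and Abcg4, lipid transporters best known from bile and brain, were also erythrocyte fingerprints. Abcb4, which moves phosphatidylcholine, read 12.98 and 12.99 in erythrocytes, 7.78 and 7.25 in granulocytes, 7.15 and 5.98 in monocytes, 6.76 and 5.60 in B cells, and 4.04 to 6.62 elsewhere. Its margin over granulocytes was 5.47 (SE 0.44, limma adjusted p = 4.59e-07). Abcg4, a sterol exporter related to Abcg1, read 11.08 and 10.84 in erythrocytes, 2.92 on granulocyte array 1 and at most 1.77 on every other array. By this brightest probe set the margin of Abcg4 was 8.64 (SE 0.29), and it kept the call with no level filter (adjusted p = 4.74e-10). Its other probe set did not show the pattern, at 2.42 and 2.45 in erythrocytes and 2.36 to 2.51 over all arrays (r = 0.08 with the brightest). Since Abcg4 was near the bottom of the scale in the other types, the size of its difference rests on that bottom: with all values below 5 set to 5 it was 5.96.

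The fifth erythrocyte fingerprint, Abcg2, had the smallest margin (2.51 over NK cells, adjusted p = 0.0169 in the fingerprint test). It lost the call without LT-HSC array 2 (adjusted p = 0.186), without NK array 2 (0.122) and without either erythrocyte array (0.0897 and 0.0847), and also with array weights (0.0808) and without the level filter (0.0512). With both granulocyte arrays left out all 5 erythrocyte fingerprints kept their calls. Leaving out a compared type cannot lower a margin, so this says nothing of the granulocyte markers in the erythrocyte arrays. Beside the granulocyte markers in the erythrocyte arrays, the granulocyte member Abca13 read 3.65 and 3.80 there by its brightest probe set, and 2.83 and 5.81 by another. Megakaryocyte and platelet markers were raised in the erythrocyte arrays too, with 4 of 6 genes above 5 and summed levels of 34.07 and 33.47, against 28.47 and 39.40 in LT-HSC and at most 29.79 elsewhere. Macrophage markers summed to 37.92 and 31.09 there, with 3 of 6 above 5, and to 20.46 to 34.99 on the other arrays. The part of these markers in the erythrocyte results was not tested.

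Abca3, which loads lipid into the lamellar bodies of lung cells, was higher in erythrocytes by 2.49 (SE 0.31, limma adjusted p = 9.15e-06). It read 10.87 and 10.09 there, but naive CD8 T cells at 9.96 and 10.30 overlapped with them. Abca7 was higher by 1.18 (SE 0.34, adjusted p = 0.00768), with erythrocytes at 10.22 and 10.05 inside the range of the other types, and lost the call without erythrocyte array 1 (adjusted p = 0.0730).

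**Figure D2:**
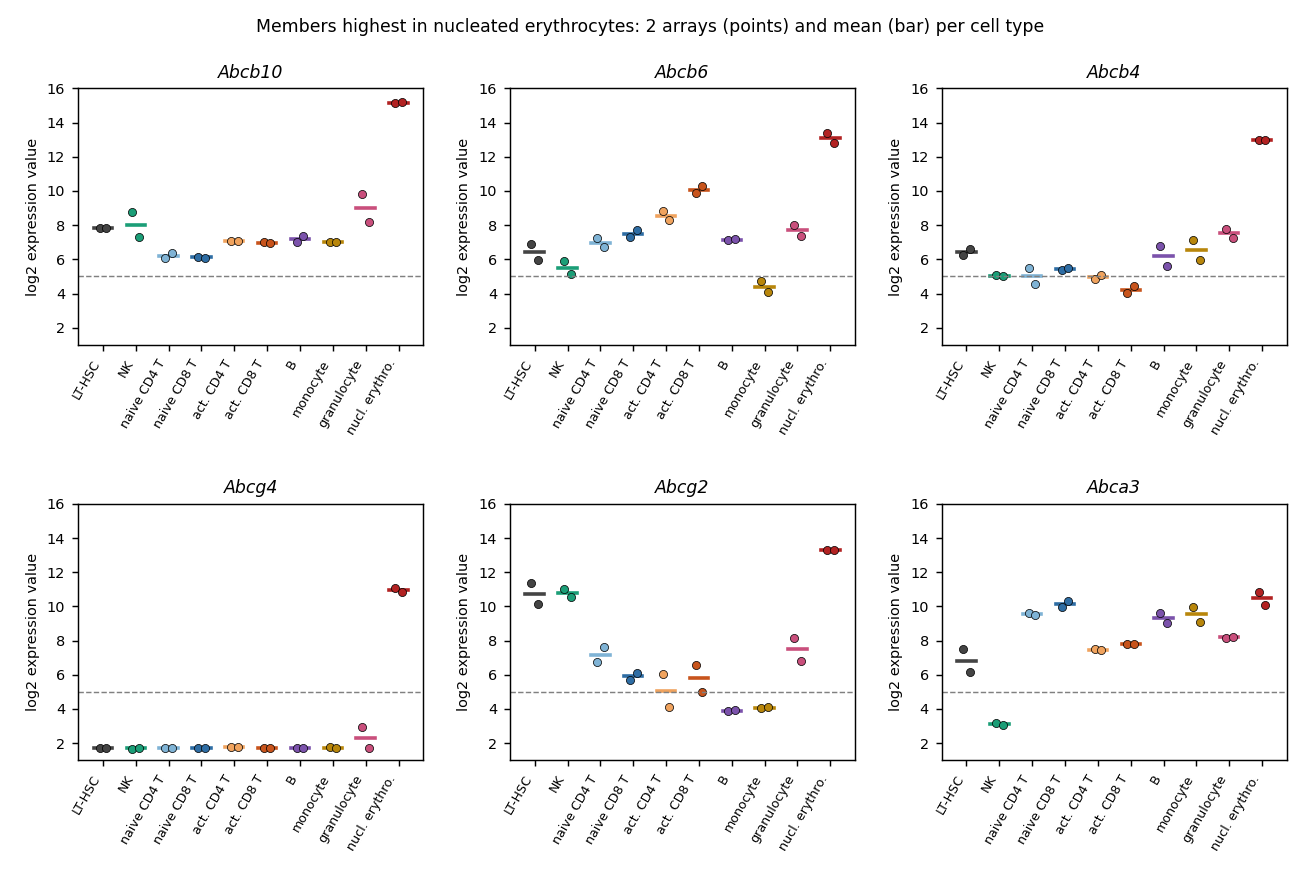
Log2 expression values of Abcb10, Abcb6, Abcb4, Abcg4, Abcg2 and Abca3 (vertical axis) in each cell type (horizontal axis). Points are the 2 arrays, bars their mean, and the dashed line the filter at 5. Both erythrocyte arrays lie above all other arrays in the first 5 panels, while the Abca3 arrays of erythrocytes and naive CD8 T cells overlap.

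Of the 9 members lower in erythrocytes, Abcg1 showed the largest difference. Abcg1, which passes cholesterol to high-density lipoprotein, read 6.14 and 6.08 in erythrocytes, 7.36 to 8.36 on the 4 activated T cell arrays and 10.05 to 11.37 on all others. The erythrocyte arrays lay below every other array, and the difference from the other types was -3.83 (SE 0.21, limma adjusted p = 3.53e-09). Abcb1b followed at -3.48 (SE 0.26, adjusted p = 6.37e-08), Abcb1a at -3.10 (SE 0.40) and Abcc1 at -2.54 (SE 0.23), and Abca1, Abcg3, Abcd3, Abcd2 and Abcf3 were lower by smaller amounts. Without erythrocyte array 2, the calls of Abcd3 (adjusted p = 0.104) and Abcf3 (0.102) were lost. Abcd2 is low in 8 of the 10 types, and with both granulocyte arrays left out its difference was -0.88 and not called. Superfamily members outside the list moved too: the antigen peptide transporters Tap1 and Tap2 were lower in erythrocytes by 4.52 and 3.05.

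The P-glycoprotein genes were low in B cells, monocytes, granulocytes and erythrocytes, with Abcb1a highest in NK cells and naive T cells and Abcb1b spread over T cells, NK cells and LT-HSC. Abcb1a, the form known from the gut and the blood-brain barrier, read 9.09 and 9.54 in NK cells, 9.12 and 9.01 in naive CD8 and 8.03 and 8.19 in naive CD4 T cells. It read 6.31 and 6.85 in activated CD8 T cells, 4.65 and 6.59 in activated CD4 T cells and 6.33 and 6.08 in LT-HSC. B cells read 4.64 and 5.20, and monocytes, granulocytes and erythrocytes 2.58 to 4.64.

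Abcb1b, the form known from the adrenal gland, read 9.84 and 9.56 in activated CD4 T cells and 10.02 and 9.27 in activated CD8 T cells. Naive CD8 T cells read 8.99 and 8.85, naive CD4 T cells 8.58 and 7.93, LT-HSC 8.62 and 8.22 and NK cells 6.57 and 7.26. It was at most 4.53 in B cells, monocytes, granulocytes and erythrocytes, below every array of the first 6 types. The step from NK cells to B cells was 2.46 (SE 0.35, limma adjusted p = 0.000125; 17.7% of tested genes differed).

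Abcb1a, Abcb1b and Abcb4 follow each other on chromosome 5, and each had a different order of cell types. The genes have close sequence, and whether a probe set also reads its neighbour was not tested. The mean of the monocyte and granulocyte values lay below the lymphoid mean by 3.94 for Abcb1b (SE 0.20, adjusted p = 8.68e-10) and by 3.64 for Abcb1a (SE 0.31, adjusted p = 1.55e-07), and Abcb4 went the other way (1.89, SE 0.25, adjusted p = 1.31e-05).

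Abcc1, the pump for glutathione conjugates and leukotriene C4, was above 5 everywhere. It read 10.85 and 10.68 in LT-HSC, 10.13 and 10.43 in activated CD4, 9.70 and 10.17 in activated CD8, 9.64 and 9.49 in naive CD8 and 9.63 and 9.32 in naive CD4 T cells, and 9.76 and 9.66 in B cells. NK cells read 8.65 and 9.13, granulocytes 7.82 and 7.23, monocytes 6.99 and 7.74 and erythrocytes 6.57 and 6.91. LT-HSC lay above every other array, but the step to activated CD4 T cells (0.48, SE 0.30) did not pass the test, and the one step that passed ran from NK cells to granulocytes (1.37, SE 0.30, limma adjusted p = 0.00212; 44.6% of tested genes differed). The nucleotide pumps Abcc4 (7.98 to 10.26) and, by its brightest probe set, Abcc5 (6.79 to 8.58) were above 5 on every array and had narrower ranges.

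**Figure D3:**
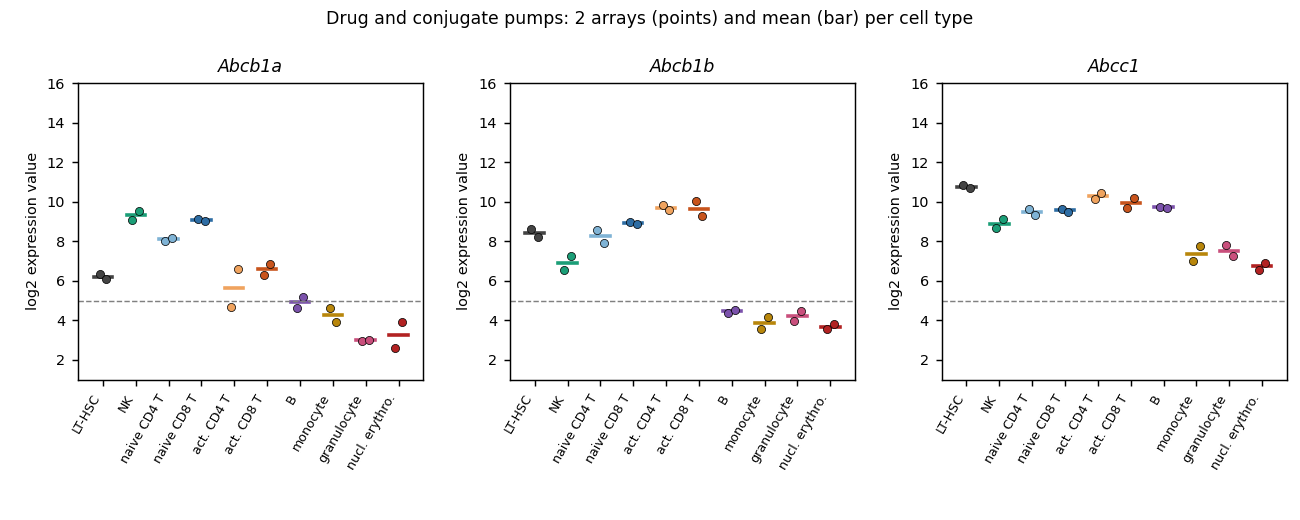
Log2 expression values of Abcb1a, Abcb1b and Abcc1 (vertical axis) in each cell type (horizontal axis). Points are the 2 arrays, bars their mean, and the dashed line the filter at 5. Abcb1b lies at 6.57 or above in the first 6 types and at 4.53 or below in the last 4.

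Stem cells stood apart by Abca5. This lysosomal lipid transporter read 9.53 and 9.69 in LT-HSC, 3.47 and 4.13 in B cells and at most 3.05 elsewhere. It was the only member among the LT-HSC fingerprints, which held 3.66% of tested genes, with a margin of 5.81 over B cells (SE 0.22). It passed the level filter only through the LT-HSC arrays. With no filter it kept the call (limma adjusted p = 1.40e-10), and with values below 5 set to 5 the margin was 4.61. Its other probe set was also highest in LT-HSC but read 6.16 and 3.20 there, and at most 1.74 elsewhere. Abca5 ends a row of neighbouring A genes on chromosome 11 (Abca8b, Abca8a, Abca9, Abca6 and Abca5), of which Abca8b, Abca8a and Abca6 had no array above 5.

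Against the mean of the other 9 types, LT-HSC had 5 members higher and 5 lower, where 18.4% and 21.5% of all tested genes were called. Abca5, one of the higher, passed the level filter only through the LT-HSC arrays, so this count is a description. The median difference was 0.07 over the 24 members and -0.20 over all tested genes. The higher ones were Abca5 (6.66, SE 0.16), Abcg2 (3.69, SE 0.50), Abcc1 (1.93, SE 0.23), Abcb1b (1.79, SE 0.26) and Abcd3 (1.28, SE 0.39). The lower ones were Abcd2 (-1.76, SE 0.15), Abca3 (-1.57, SE 0.31), Abcb6 (-1.48, SE 0.30), Abca7 (-1.36, SE 0.34) and Abcg4 (-1.11, SE 0.22). For Abcd2 and Abcg4 the low side is shared with most types, since each is high in only 1 or 2 of them: with values below 5 set to 5 the Abcg4 difference was -0.66 and not called, and with both granulocyte arrays left out that of Abcd2 was -0.94 and not called. With both erythrocyte arrays left out the Abcb6 difference was -0.83 and not called. Without LT-HSC array 2, 6 members were called: Abca3, Abca7, Abcb6 and Abcd3 lost the call, at adjusted p of 0.0563, 0.0952, 0.0547 and 0.0789. Abcd3 also lost it without LT-HSC array 1 (adjusted p = 0.112). Of 12 tested glutathione and drug-response partners, 3 were higher in LT-HSC and 2 lower, against the same 18.4% and 21.5%. Gstm1 (4.48) and Ahr (1.92) were among the higher, and the lower were Gsr (-1.90) and Keap1 (-1.22).

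The myeloid types shared Abcd2 and Abca7. Abcd2, a peroxisomal importer of very long chain fatty acyl-CoA, read 9.55 and 10.08 in monocytes, 10.74 and 10.80 in granulocytes and at most 2.62 on all 16 other arrays. Abcd2 passed the level filter only through the 4 arrays of these myeloid types, so its difference is a description. The mean of both types exceeded the mean of the 6 lymphoid types by 7.74 (SE 0.11, limma adjusted p = 4.85e-15). The lymphoid arrays were at the bottom of the scale, and with values below 5 set to 5 the difference was 5.29. The erythrocyte arrays, which carried granulocyte markers, read 2.58 and 2.58. With the granulocyte arrays left out, Abcd2 became a monocyte fingerprint, which follows from the levels above and adds no further result.

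Abca7, a phospholipid transporter linked to phagocytosis, read 11.62 and 10.57 in monocytes and 10.76 and 11.40 in granulocytes. All 4 arrays lay above the lymphoid arrays, which ranged from 6.05 to 9.65, and the difference was 2.66 (SE 0.26, limma adjusted p = 6.88e-07). Abca9 read 3.43 and 7.66 in monocytes and 5.59 and 5.23 in granulocytes, and at most 3.58 elsewhere. It was called (3.28, SE 0.52, adjusted p = 6.55e-05), but its monocyte arrays are far apart. With values below 5 set to 5 its difference was 0.87 and it was no longer called. Abca9 passed the level filter only through monocyte and granulocyte arrays, so its difference is a description.

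In all, 7 members were higher and 8 lower in the myeloid mean than in the lymphoid mean, where 20.4% and 35.2% of tested genes were called. Of the higher ones, Abcd2, Abca9 and Abca13 passed the level filter only through myeloid arrays, so this count is a description. The median difference was -0.17 over the 24 members and -0.36 over all tested genes. Besides Abcb1a and Abcb1b, the ribosome recycling factor Abce1 was among the lower ones. Abce1 read 7.04 and 9.03 in monocytes and 9.76 and 9.04 in granulocytes, below the lymphoid arrays at 11.58 to 13.75, and differed by -3.77 (SE 0.29, limma adjusted p = 4.85e-08). Of 11 tested partners in ribosome rescue, termination and the Gcn2 pathway, 9 were also lower and 0 higher, with a median of -1.31. They included the release factor Gspt1 (-3.32), Gcn1 (-2.93) and the kinase gene Eif2ak4 (-2.39).

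Monocytes and granulocytes differed by Abca13. This very large A subfamily member read 9.77 and 8.16 in granulocytes and at most 3.80 on every other array, and was a granulocyte fingerprint, as were 1.99% of tested genes, with a margin of 5.24 (SE 0.36). It passed the level filter only through the granulocyte arrays. With no filter it kept the call (limma adjusted p = 3.22e-06), and with values below 5 set to 5 the margin was 3.96. Another of its probe sets read 10.59 and 9.51 in granulocytes, 5.10 on monocyte array 2 and 5.81 on erythrocyte array 2. Against monocytes the difference was -5.36 (monocytes minus granulocytes, SE 0.36). Abcd3, a peroxisomal importer of branched-chain and long-chain fatty acyl-CoA, read 4.65 and 6.28 in monocytes and 9.38 and 9.05 in granulocytes (-3.75, SE 0.53, adjusted p = 0.000172).

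In this comparison 4 members were higher in monocytes and 6 lower, against 6.98% and 17.3% of tested genes. Abca13, one of the lower, passed the level filter only through the granulocyte arrays, so this count is a description. The median difference was -0.53 over the 24 members and -0.13 over all tested genes. The higher ones were Abcg3, which read 9.62 and 9.95 in monocytes and 6.84 and 6.44 in granulocytes (3.15, SE 0.74), Abca1 (2.40, SE 0.62), Abca3 (1.34, SE 0.42) and Abcg1 (1.17, SE 0.28). Of the lower ones, Abcg2 (-3.42, SE 0.66), Abcb6 (-3.29, SE 0.41) and Abcb10 (-2.00, SE 0.47) are also the erythrocyte genes, and erythroid markers were raised in the same granulocyte arrays. Granulocyte array 1 was above array 2 for all of these (8.15 and 6.81, 8.03 and 7.36, 9.84 and 8.21), as it was for the erythroid markers. The part of those markers in the difference was not tested. Without granulocyte array 1 Abcb10 differed by -1.19 and was no longer called (adjusted p = 0.0828). The call of Abca1 was lost without monocyte array 2 (adjusted p = 0.0870) or granulocyte array 2 (0.116), that of Abca3 without monocyte array 1 (0.236) or either granulocyte array (0.117 and 0.0914), and that of Abcg1 without granulocyte array 2 (0.0503). With only these 4 arrays in the model 1 member was called. The 5′ Gapdh control read 4.08 and 6.00 in monocytes and 8.26 and 8.23 in granulocytes, and the 5′ actin control 5.59 and 5.78 against 9.15 and 7.59. The monocyte arrays had the lowest correlation of any pair (r = 0.945 over tested genes), with 6 members more than 2-fold apart. The part of these in the differences was not tested.

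**Figure D4:**
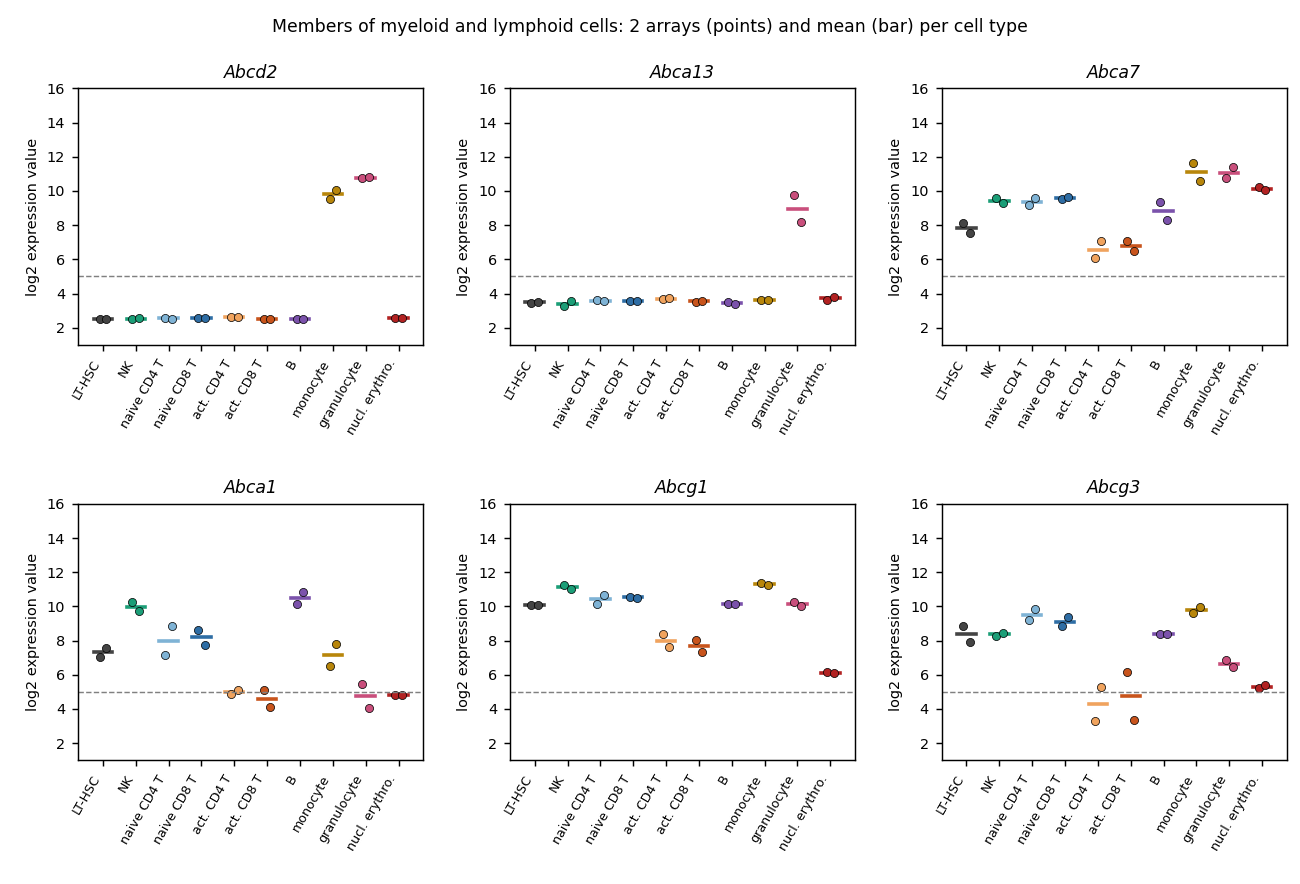
Log2 expression values of Abcd2, Abca13, Abca7, Abca1, Abcg1 and Abcg3 (vertical axis) in each cell type (horizontal axis). Points are the 2 arrays, bars their mean, and the dashed line the filter at 5. Abcd2 is above 9 in monocytes and granulocytes only, and Abca1, Abca7, Abcg1 and Abcg3 are lower in activated than in naive T cells.

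NK cells differed from naive T cells by Abca3 and Abcg2. Abca3 read 3.15 and 3.05 in NK cells, the only arrays below 5, and 9.48 to 10.30 in naive T cells, a difference of -6.74 (SE 0.36, limma adjusted p = 1.19e-08). With values below 5 set to 5 it was -4.84 and still called. Abcg2 was higher in NK cells by 4.25 (SE 0.58, adjusted p = 0.000119), Abca1 by 1.88 (SE 0.54) and Abcb10 by 1.86 (SE 0.40), and Abcb6, Abcb1b and Abcb9 were lower by 1.73, 1.67 and 1.37. These are 3 members higher and 4 lower, against 8.35% and 8.95% of tested genes, with a median of -0.079 over the members and -0.058 over all tested genes. The Abcb10 call was lost without NK array 1 (1.14, adjusted p = 0.128), the Abcb6 call without NK array 2 (adjusted p = 0.0643), and the Abca1 call without either NK array (adjusted p = 0.206 and 0.0724), without naive CD4 array 1 (0.0695) or without naive CD8 array 2 (0.0765). With values below 5 set to 5 the Abcb9 difference was -0.10 (adjusted p = 0.720).

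Of the channel regulators Abcc8 and Abcc9, which form ATP-sensitive potassium channels with inward rectifiers, no array exceeded 3.53. The channel pore gene Kcnj8 read 9.94 and 8.89 in NK cells and at most 5.40 elsewhere.

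B cells differed from naive T cells by Abca1 on the higher side and the P-glycoprotein genes on the lower side. Abca1, which exports cholesterol to apolipoprotein A-I, read 10.12 and 10.85 in B cells, 10.24 and 9.72 in NK cells, 7.13 and 8.87 in naive CD4 and 8.63 and 7.76 in naive CD8 T cells. LT-HSC read 7.06 and 7.56 and monocytes 6.51 and 7.80. All other types lay at 4.05 to 5.46. B cells exceeded naive T cells by 2.39 (SE 0.54, limma adjusted p = 0.00614), a call lost without B array 2 (adjusted p = 0.0979). These Abca1 values are of its brightest probe set. Its other probe sets did not show the pattern, at 2.88 to 3.08 and 2.66 to 4.20 over all arrays (r = -0.42 and -0.11 with the brightest). With the mean over its probe sets, Abca1 was not called for B cells (0.75) or NK cells (0.58) against naive T cells. Its calls for monocytes against granulocytes, the myeloid mean and erythrocytes were lost too, and its activation calls were kept. Abcb1b was lower in B cells by 4.13 (SE 0.30), Abcb1a by 3.67 (SE 0.47), Abcg2 by 2.65 (SE 0.58) and Abcb9 by 1.37 (SE 0.24). Both B cell arrays were below 5 for Abcg2 and Abcb9, and with values below 5 set to 5 neither was called, at -1.54 (adjusted p = 0.0545) and -0.10 (0.753). This was 1 member higher and 4 lower, against 8.27% and 7.77% of tested genes, with a median of -0.099 over the members and -0.028 over all tested genes. Plasma cell markers were raised in both B cell arrays, and their part in these differences was not tested.

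The genes most like Abca1 over the 10 cell type means were Ccdc171 (r = 0.981), the transcription factor Foxp1 (0.973), Nemp2 (0.952), Ppcdc, an enzyme of coenzyme A synthesis (0.943), and Brwd1 (0.937), all highest in B cells. Those most like Abcb10 were Fbxo34 (0.977), the water channel Aqp1 (0.976), the red cell ankyrin gene Ank1 (0.974), the blood group gene Kel (0.974) and Cldn13 (0.973), all highest in erythrocytes.

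Activated T cells were compared with naive T cells of the same lineage. In both lineages 4 of the 8 tested lipid exporters, Abca1, Abcg1, Abca7 and Abca3, were lower in the activated cells, as was Abcb1a. Of the 24 members, 3 were higher and 8 lower in activated than in naive CD4 T cells, against 14.9% and 18.2% of tested genes, and 3 were higher and 7 lower in CD8 T cells, against 14.4% and 15.7%. The median differences were 0.045 and -0.023 over the members and 0.023 and -0.020 over all tested genes. The comparisons use separate arrays, but naive arrays of the same number shared traits across the lineages. Y-linked signal was on those numbered 1, and granulocyte markers were raised on those numbered 2. Of the members, 7 were lower in both lineages (Abcg3, Abca1, Abca7, Abcb1a, Abcg1, Abca3 and Abcb9), 2 were higher in both (Abcb6 and Abce1) and 0 went opposite ways.

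Abcg3, a rodent G subfamily gene without an assigned role, fell most. It read 9.21 and 9.83 in naive and 3.32 and 5.28 in activated CD4 T cells (-5.22, SE 0.74, limma adjusted p = 0.000126). In CD8 T cells it read 8.85 and 9.37 before and 6.16 and 3.37 after (-4.35, SE 0.74, adjusted p = 0.000614). The activated arrays are well below the naive ones but far from each other, and with only the CD8 groups in the model the CD8 call was lost (adjusted p = 0.0716).

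Abca1 fell to 4.87 and 5.13 in activated CD4 T cells (-3.00, SE 0.62, limma adjusted p = 0.00201, and 0.0543 with only the CD4 groups in the model) and to 5.08 and 4.13 in activated CD8 T cells (-3.59, SE 0.62, adjusted p = 0.000718). Abcg1 fell from 10.13 and 10.69 to 8.36 and 7.61 in CD4 T cells (-2.42, SE 0.28, adjusted p = 3.00e-05). In CD8 T cells it fell from 10.57 and 10.47 to 8.01 and 7.36 (-2.84, SE 0.28, adjusted p = 1.13e-05). Of 9 tested cholesterol and liver X receptor partners, 2 were higher and 1 lower in CD4 T cells and 0 higher and 1 lower in CD8 T cells, against 14.9% and 18.2% of tested genes in CD4 and 14.4% and 15.7% in CD8 T cells. The lower one in both was Mylip, the ligase that removes the LDL receptor and a known liver X receptor target like Abca1 and Abcg1, at -5.28 and -3.73. The higher ones in CD4 T cells were Scarb1 (1.96) and Rxra (1.23).

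Abca7 fell from 9.16 and 9.60 to 6.05 and 7.10 in CD4 T cells (-2.80, SE 0.46, limma adjusted p = 0.000365). It fell from 9.52 and 9.65 to 7.07 and 6.51 in CD8 T cells (-2.80, SE 0.46, adjusted p = 0.000480). Abca3 fell by 2.08 and 2.33 (SE 0.42 each), and Abcb1a by 2.49 in either lineage (SE 0.54). The activated CD4 arrays of Abcb1a were far apart, and its CD4 difference was -1.52 without array 1 of them. With only the CD4 groups in the model that call was lost (adjusted p = 0.0946). Abcb9, a lysosomal peptide transporter, fell by 1.19 and 1.18 (SE 0.27), but it exceeded 5 on only 3 arrays of the series, and with values below 5 set to 5 its differences were -0.010 and -0.20 and were not called. The CD8 call was also lost without naive CD8 array 2 (-0.83, adjusted p = 0.0691).

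Of the genes that rose, Abcb6 went from 7.24 and 6.71 to 8.81 and 8.32 in CD4 T cells (1.59, SE 0.41, limma adjusted p = 0.00751). In CD8 T cells it went from 7.31 and 7.71 to 9.86 and 10.31 (2.58, SE 0.41, adjusted p = 0.000363). The CD4 call was lost without naive CD4 array 2 (adjusted p = 0.0645) and without activated CD4 array 1 (0.0720). Abce1 went from 11.61 and 12.24 to 13.55 and 13.58 in CD4 T cells (1.64, SE 0.50, adjusted p = 0.0197). In CD8 T cells it went from 12.09 and 11.59 to 13.75 and 13.33 (1.70, SE 0.50, adjusted p = 0.0181). Neither difference was called with the highest-variance probe set standing for Abce1 (limma adjusted p = 0.0831 in CD4 and 0.0641 in CD8 T cells). Its groups do not overlap, but the calls were lost without naive CD4 array 1 (adjusted p = 0.131), without either activated CD4 array (0.0787 and 0.0752), without naive CD8 array 2 (0.118) and without activated CD8 array 1 (0.103).

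Abcf1, a translation initiation factor of the F subfamily, rose in CD8 T cells from 9.53 and 9.72 to 10.84 and 11.66 (1.63, SE 0.32, limma adjusted p = 0.00166, and 0.0509 with only the CD8 groups in the model). In CD4 T cells its difference was 0.90 (SE 0.32), short of 1. Of the 11 tested partners in ribosome rescue, termination and Gcn2 signalling, 6 rose in CD4 (against 14.9% of tested genes) and 9 in CD8 T cells (14.4%) and 0 fell, with medians of 1.40 and 1.49. Gspt1 rose by 2.30 and 2.57 and the release factor Etf1 by 2.01 and 2.48.

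Abcb1b rose in CD4 T cells by 1.45 (SE 0.35, limma adjusted p = 0.00520) while Abcb1a fell, and the naive and activated arrays of each do not overlap. In CD8 T cells the Abcb1b difference was 0.73 (SE 0.35, adjusted p = 0.130). The CD4 call was lost without naive CD4 array 2 (adjusted p = 0.0578). Abcg2 fell in CD4 T cells by 2.12 (SE 0.66, adjusted p = 0.0231), a call lost without naive CD4 array 2 (adjusted p = 0.151) or activated CD4 array 2 (0.257), and differed by -0.12 (SE 0.66) in CD8 T cells. Naive CD4 array 2, without which the CD4 calls of Abcb6, Abcb1b and Abcg2 were lost, is the naive array with the most granulocyte marker signal (summed level 35.19).

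The difference between the lineages was itself tested. No member was called (0 higher and 0 lower by limma, against 0.326% and 0.336% of tested genes), and 0 members had an unadjusted p under 0.05. For Abcg2 the CD8 change minus the CD4 change was 2.00 (SE 0.94, adjusted p = 0.806).

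Other measures moved with activation. The 5′ Gapdh control read 7.42 to 8.81 on the activated arrays and 3.89 to 4.45 on the naive T cell arrays, and the 3′ control 14.66 to 15.08 and 13.07 to 13.58. Monocyte markers summed to 41.71 to 47.26 on the naive and 28.29 to 33.17 on the activated arrays, with 3 to 4 of 6 genes above 5 against 2. In the monocyte arrays they summed to 40.61 and 47.57, so this list did not set monocytes apart from naive T cells. Macrophage markers summed to 24.96 to 30.72 and 20.46 to 22.63, platelet markers to 19.39 to 25.80 and 15.47 to 18.22, and dendritic cell markers to 13.54 to 19.41 and 12.03 to 12.83. Of the members that fell in both lineages, Abca1, Abca3, Abca7, Abcg1 and Abcg3 were above 5 in monocytes too, and Abcb1a and Abcb9 were not. The Y-linked signal was in all activated arrays and in only the naive arrays numbered 1. With those naive arrays left out 10 members were called in each lineage, and with the naive arrays numbered 2 left out 8 and 8. The part of these measures in the differences was not tested further.

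**Figure D5:**
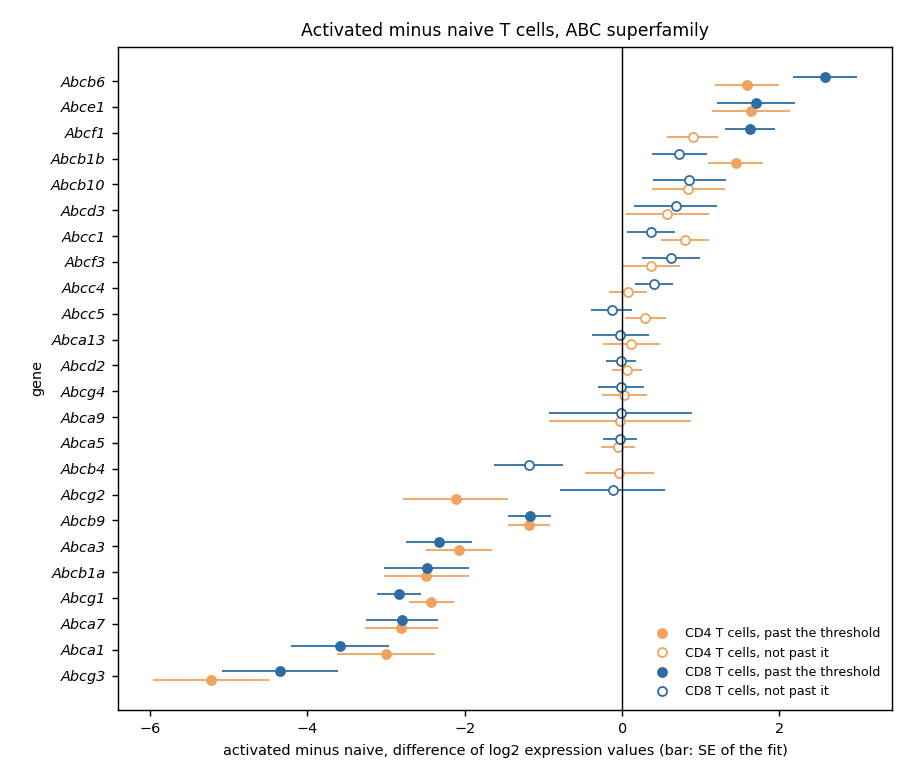
Activated minus naive difference of log2 expression values (horizontal axis) for the 24 tested members (vertical axis) in CD4 (orange) and CD8 T cells (blue). Filled points passed the threshold, open points did not, and bars are the SE of the fit. Abcg3 (-5.22 and -4.35) and Abca1 (-3.00 and -3.59) lie farthest to the left in both lineages, and Abcb6 farthest to the right in CD8 T cells at 2.58.

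Abcd4, a lysosomal cobalamin transporter, was not tested, with 1 array above 5 (NK array 1 at 5.26), but its pathway was measured. Of 8 tested cobalamin genes, 4 rose in CD4 and 5 in CD8 T cells and 0 fell, against 14.9% and 14.4% of tested genes higher and 18.2% and 15.7% lower. The largest was Cd320, the receptor for transcobalamin, which read 2.76 to 3.19 in naive and 8.06 and 8.32 in activated CD8 T cells (5.22, SE 0.34). Mmachc rose by 2.75 and Mtrr by 1.75 in CD8 T cells.

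All 24 tested members differed somewhere among the 10 types by the moderated F test of limma, as did 93.8% of all tested genes. The members pass the filter through the types where they are high, so this count says little about the superfamily. By their brightest probe sets, the members with the narrowest span of cell type means were Abcc5 (1.38), Abcb9 (1.45), Abcf3 (1.90) and Abcc4 (1.94). Abcf3 of the F subfamily read 7.31 to 9.94 by that probe set, but 3.08 to 8.31 and 2.45 to 7.24 by its other ones. The narrow span of Abcb9 lies near background, with only 3 arrays above 5.

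The 21 untested members had no array above 5 apart from the one of Abcd4. Of the drug and conjugate pumps, the highest array of Abcc10 was 4.70, of Abcc3 4.30, of Abcc2 3.20, of Abcc12 3.0, of Abcc6 2.09 and of the bile salt pump Abcb11 1.97. Of the lipid transporters, Abca2 reached 4.51, Abca12 4.36, Abca8a 2.97, Abca6 2.62, Abca8b 2.35 and the retinal Abca4 1.81. Abcg5 and Abcg8, the paired sterol exporters of liver and gut, reached 2.27 and 1.86. Mitochondrial Abcb8 reached 3.67 and Abcf2 3.36, and Abca14 and Abca16, without an assigned role here, reached 2.83 and 2.63. Abcc8 reached 3.53 and Abcc9 3.22. A low value on this array does not show that a gene is silent.

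Of the 45 members, 19 had 1 probe set and 26 several, and 13 further probe sets in 7 of the tested genes passed the same filter. For Abcd2 the further probe set followed the brightest one closely over the 20 arrays (r = 0.99). So did that of Abca13 (0.94), one of Abce1 (0.96, against 0.64 for its other one) and, at 0.85, that of Abcb1a. The probe sets of Abcc5 did not: its 5 further ones correlated with the brightest at 0.20 to 0.51. They ran over the arrays from 5.28 to 9.47, 2.30 to 7.64, 5.40 to 6.17, 4.32 to 6.02 and 2.57 to 6.10. Both the order of cell types and the width of the range for Abcc5 therefore depend on the probe set.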

How the data were processed

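Expression was measured on Affymetrix mouse genome oligonucleotide arrays, 2 for each of 10 cell types, grouped by their labels. The authors deposited log2 values from GCRMA, per the submitters' processing notes, which correct background and normalize across arrays; the version is not given in the sources used here. Array medians ran from 3.08 to 3.27 and values from 0.37 to 16.85. Arrays carry no read depth, and 2 arrays per type limit the precision. Of 45101 probe sets, 34945 carried 1 gene symbol, and 932 with several symbols named no gene. Each gene was represented by its probe set with the highest mean, and 9810 genes with at least 2 arrays above 5 were tested in limma 3.58.1 (R 4.3.3) with 1 mean per cell type over all 20 arrays and 10 residual degrees of freedom. Fingerprints used the largest one-sided p over the other 9 types. Calls needed a Benjamini-Hochberg adjusted p under 0.05 and a difference of at least 1. The code was tested on simulated data.

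The members, gene lists and comparisons were chosen with earlier results of these data known. Array values are given in full for Abcg2, Abcb1a, Abcb1b, Abcb10, Abca1, Abcg1, Abcc1, Abce1, each fingerprint member and the 3 largest called differences on each side of a comparison, and up to 4 called genes for each partner list. The labels state no pairing by replicate number, and the main model used none. Over 45 pairs of cell types the correlation of same-numbered deviations ran from -0.26 to 0.21, with 9 above 0.1. The naive CD4 and CD8 arrays did share traits by number, so a pairing of particular types cannot be told from this. Alternatives covered probe set choice, filter, centring, quantile normalization, a floor, array weights, a replicate block, the samples fitted and each array left out. Promoters came from RefSeq on GRCm38.p6.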

Additional observations from a re-analysis of the deposited data

How the results depend on the processing

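Counts of called members stayed within 1.5 times of the reported ones under the alternatives, except as follows. With the mean over all probe sets of a gene, 4 members were called for LT-HSC, 3 for NK cells and 3 for B cells against naive T cells. With a filter of at least 4 arrays above 6, 4 fingerprints were found. With values below 5 set to 5, 3 members were called for B cells. Monocytes against granulocytes gave 5 calls with array weights and 1 with only the groups compared in the model. After both erythrocyte arrays were left out, an alternative chosen after seeing the data, 2 fingerprints were found.

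With each array left out in turn, calls ran from 6 to 11 for LT-HSC (6 without LT-HSC array 2), 15 to 17 for erythrocytes, 8 to 12 for monocytes against granulocytes, 14 to 16 for the myeloid against the lymphoid mean, 8 to 11 for CD4 and 8 to 11 for CD8 activation, 5 to 7 for NK cells, 5 to 6 for B cells and 6 to 9 for fingerprints. A lone array was then assumed to vary like the other groups. With the replicate number as a block, for which the labels state no pairing, 7 fingerprints were called. Members called were then 10 for LT-HSC, 16 for erythrocytes, 10 for monocytes against granulocytes and 15 for myeloid against lymphoid. They were 11 for CD4 activation, 11 for CD8 activation, 7 for NK cells and 5 for B cells. Over 148 results for named members recomputed 4692 times, 4578 kept their side of the threshold, 106 lost the call, 8 gained it and 0 called differences changed sign. Of the differences not called, 10 took the other sign in 40 of these values, such as Abcg2 in CD8 activation (-0.92 to 0.68). The cause of these shifts was not tested. Signal near background limits Abcb9 and Abca9 most.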
